A study of Mus musculus with 14 samples.

Results

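The 89 cytosolic ribosomal protein genes described here were those of the 54532 genes in the count table whose symbol is Rpl or Rps followed by a number (with at most a letter and a further digit), together with Rpsa, Rplp0, Rplp1 and Rplp2. They comprised 53 genes of the large subunit and 36 of the small subunit. Rows for numbered pseudogenes ("-ps") and the Rps6k kinases were not included. In GENCODE M21, 83 of the 89 are protein-coding and 6 carry a pseudogene biotype (Rpl32l, Rpl6l, Rps12l1, Rps3a2, Rps3a3 and Rps4l). Expression was measured by bulk RNA sequencing in long-term haematopoietic stem cells (LT-HSCs), the most primitive self-renewing blood cells, and granulocyte-monocyte progenitors (GMPs), the committed precursors of neutrophils and monocytes. Bone marrow of C57BL/6 mice was the source of both sorted populations. In AML1-ETO mice (genotype Runx1-Runx1t1, a gene fusion found in acute myeloid leukaemia), the fusion is switched on by Mx1-Cre, a recombinase under an interferon-responsive promoter that is active in many cell types. Control mice are labelled WT, and poly(I:C), given at 5 mg/kg in 4 doses, is listed for all 14 samples, controls included. There were 3 AML1-ETO and 4 control libraries of each cell type. The sources used here give no age for the mice. No label says whether replicates are separate animals, so p-values measure only the spread between these libraries.

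Each cytosolic ribosome joins a small subunit, which reads the mRNA, and a large subunit, which makes the peptide bond. Every subunit carries 1 copy of most of its proteins, and the genes encoding them are known for being expressed in step, at high levels. Many of their mRNAs start with a cytosine and a run of pyrimidines, the 5′ terminal oligopyrimidine (TOP) motif, through which mTOR signalling and Larp1 control their translation. Blood formation is known to be sensitive to the dose of single ribosomal proteins: loss of 1 copy of several of these genes causes Diamond-Blackfan anaemia, a failure of red cell production.

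The start-site letters below are shown because the TOP motif is what these genes are known to share outside their proteins, and the genes printed are a selection of those named in the results. Of the 89 members, 64 matched the RefSeq promoter table (build GRCm38.p6) by symbol. A C followed by at least 4 letters that are each C or T, read on the gene's own strand only, lay exactly at an annotated start in 14 of the 64 (21.9%) and within 5 bases of one in 30 (46.9%). Among all 27025 gene symbols of the promoter table, members included, the corresponding shares were 3.0% and 21.2%. Large subunit members held the run within 5 bases in 18 of 40 and small subunit members in 12 of 24. A match is a description of the letters at an annotated start, not a measured start site. Each line gives the 10 bases before and the 20 from an annotated start, 5′ to 3′, with the run in capitals where there is one.
Rps27 (chr3:90213629-90213658, minus strand): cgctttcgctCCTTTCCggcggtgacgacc
Rps27l (chr9:66946076-66946105, plus strand): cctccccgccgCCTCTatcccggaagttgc
Rpl35a (chr16:33056472-33056501, plus strand): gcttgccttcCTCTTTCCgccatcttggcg
Rps24 (chr14:24490668-24490697, plus strand): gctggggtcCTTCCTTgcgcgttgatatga
Rpl7l1 (chr17:46782637-46782666, minus strand): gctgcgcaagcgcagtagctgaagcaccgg
Rpl22 (chr4:152324426-152324455, plus strand): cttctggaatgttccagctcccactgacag
Rpl3l (chr17:24727816-24727845, plus strand): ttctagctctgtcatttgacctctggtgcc
Rps27l, Rpl35a and Rps24 also have annotated starts without the run, and of the genes printed Rpl7l1, Rpl22 and Rpl3l hold none within 5 bases of any annotated start. The Rpl22 window printed lies upstream of the gene span given below, and the one at the start of that span (chr4:152325716-152325745) is not printed. Of genes not printed, Rpl7a holds the run within 5 bases of its annotated start and Rpl41 does not.

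Library totals ran from 13210952 to 19403864 counts. Runx1t1, the part of the fusion that normal blood cells express little, ranged from 85.7 to 164 CPM (each gene's counts scaled to a common library size) in AML1-ETO LT-HSCs against 0 to 18.2 in control LT-HSCs, and from 26.0 to 45.7 in AML1-ETO GMPs against 1.69 to 2.74 in control GMPs. The summed CPM of 12 GMP markers was 21860 to 35850 in GMP libraries, 1614 to 1856 in AML1-ETO LT-HSCs and 179 to 473 in control LT-HSCs. That of 12 LT-HSC markers was 1062 to 2458 in LT-HSC and at most 661 in GMP libraries. Other cell types' markers were also present. The 12 B and plasma cell markers summed to 13390 to 81150 CPM in control LT-HSCs, with all 12 detected, against 292 to 877 in AML1-ETO LT-HSCs, where Ms4a1 was at 0. The 10 mast cell markers summed to 9542 to 12200 CPM in AML1-ETO LT-HSCs, with all 10 detected, against 446 to 673 in control LT-HSCs, where Fcer1a and Mcpt4 were at 0. The 12 erythroid markers summed to 1006 to 2617 CPM in control LT-HSCs and 453 to 535 in AML1-ETO LT-HSCs, while AML1-ETO GMPs ranged from 234.5 to 5351 and control GMPs from 233 to 278. The 10 T and NK cell markers summed to at most 342 CPM in any library. The part of these cells in the members' levels was not tested. In bulk libraries, fewer cells of a type and less RNA per cell cannot be told apart.

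1 library stood apart in the ribosomal protein genes. In control LT-HSC replicate 2, 79 of the 86 members that passed the filter on low counts (all but Rpl10l, Rpl39l and Rps12l1) had their highest level of the 4 control LT-HSC libraries, and the median member was 1.63 times the median of the other 3. Over all genes the median difference was 0 on the log2 scale, and the median member of every other library was 0.83 to 1.19 times that of its group's others. Immunoglobulin genes took 9.95% of the counts of that library, against 1.83% to 2.68% in the other 3 control LT-HSC libraries and 0.0191% to 0.0932% in AML1-ETO LT-HSCs. Its B and plasma cell markers summed to 81150 CPM, against 13390 to 18150 in the other 3. With immunoglobulin genes taken out of the total, the members still held 8.45% of its counts against 5.28% to 5.69%. Results that rest on this library are given with and without it. Since the members' own levels singled it out, leaving it out lowers their control LT-HSC level by that choice. Member values and counts without it are descriptions, not a test.

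Large subunit members together held 2.901%, 4.24%, 3.13% and 3.07% of the counts in the 4 control LT-HSC libraries and 2.78%, 2.29% and 2.64% in the 3 AML1-ETO LT-HSC libraries. In GMPs they held 3.92%, 3.73%, 4.30% and 3.503% in controls and 3.16%, 3.28% and 3.43% in AML1-ETO mice. In these unscaled shares, every AML1-ETO library was below every control library of its cell type. The means were 3.34% ± 0.61 (SD, n = 4) and 2.57% ± 0.25 (SD, n = 3) in LT-HSCs, and 3.86% ± 0.34 (SD, n = 4) and 3.29% ± 0.14 (SD, n = 3) in GMPs. Shares are of all counts and carry no test, since a share also falls when other genes take more of a library. In scaled CPM the LT-HSC groups overlapped. The median member of both subunits was at 389.8 to 484.3 CPM in AML1-ETO and 456.9 to 783.4 CPM in control LT-HSC libraries. In GMPs it was at 574.5 to 622.7 CPM in AML1-ETO and 648.1 to 826 CPM in control libraries.

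Small subunit members followed the same order. They held 2.27%, 3.37%, 2.45% and 2.45% of counts in control LT-HSCs and 2.22%, 1.78% and 2.12% in AML1-ETO LT-HSCs. Control GMPs held 3.08%, 2.96%, 3.40% and 2.75%, and AML1-ETO GMPs 2.55%, 2.54% and 2.68%. The ratio of large to small subunit counts was 1.27 ± 0.014 (SD, n = 4) in control LT-HSCs, 1.26 ± 0.020 (SD, n = 3) in AML1-ETO LT-HSCs, 1.27 ± 0.0065 (SD, n = 4) in control GMPs and 1.27 ± 0.028 (SD, n = 3) in AML1-ETO GMPs. The ranges of all 4 groups overlapped.

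**Figure D1:**
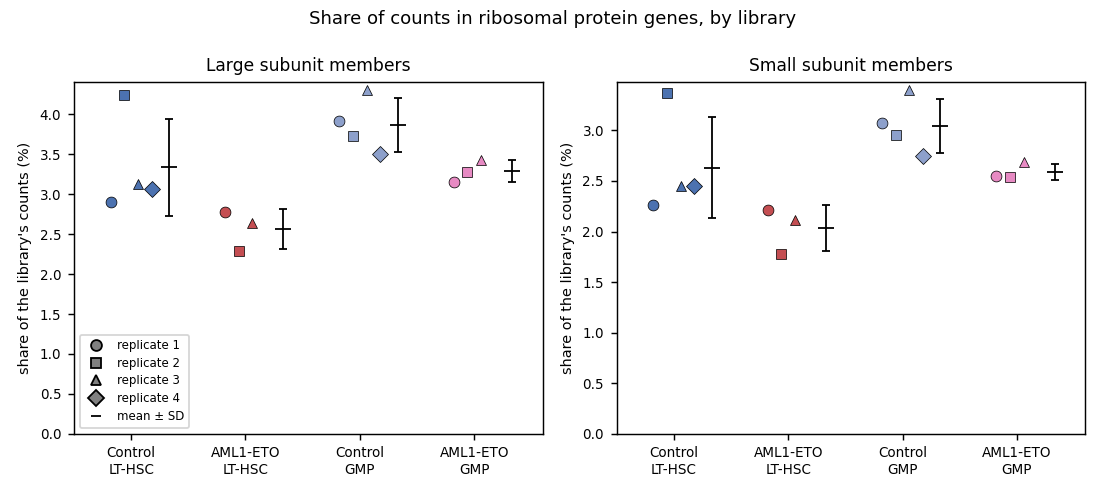
Share of each library's counts (percent, y axis) in large (left) and small (right) subunit members for the 4 groups (x axis); symbols are replicates and the bar is mean ± SD. Control LT-HSC replicate 2 lies above the other LT-HSC libraries at 4.24% and 3.37%.

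Per length, the highest mean levels over the 14 libraries were those of Rplp1 at 2495 CPM per kb of transcript, Rps9 at 2064 and Rplp0 at 2042. Rplp1 and Rplp0 encode stalk proteins that recruit translation factors to the large subunit, and Rps9 a small subunit protein. At the other end, Rpl10l and Rps12l1 had no count in any library, and the lowest levels above 0 were 0.0348 CPM per kb for Rpl39l, 1.91 for Rpl3l and 4.04 for Rpl32l. Rpl24, Rpl13a and Rps10 were also low for their class, at 4.93, 38.3 and 19.7 CPM per kb. These 3 share 47.0%, 35.4% and 20.6% of their exon bases on the same strand with another annotated gene (Gm28037, Gm45713 and RPS10-NUDT3), and reads that fit both genes may not have been counted, so their levels are uncertain.

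The members varied together over the libraries. Across the 14 libraries, the log2 CPM of a member correlated with the mean of the other members at a median r of 0.882 over 86 members. In 30 of them r was at least 0.9 and in 7 it was under 0.5. All points share the same libraries, scaling and group differences, and control LT-HSC replicate 2 is among them, so these are descriptions. Rpl30 (0.973), Rps23 (0.968) and Rps28 (0.967) followed the others most closely. Rpl32l (-0.459), Rpl3l (-0.180) and Rpl24 (-0.0392), all at low counts, followed least, and among highly expressed members Rpl21 (0.270) and Rps24 (0.468) did. Of the 16030 other genes, those most like the members' mean were Gm2225 (r = 0.956), Eef1b2 (0.936), which encodes a subunit of elongation factor 1, and Tomm20 (0.933), a receptor of the mitochondrial import machinery.

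AML1-ETO and control LT-HSCs were compared over 14589 genes, of which 86 were members. A gene is counted as changed at a Benjamini-Hochberg adjusted p under 0.05 in edgeR's quasi-likelihood test, over all genes tested. In AML1-ETO LT-HSCs 2 small subunit genes, Rps27l among them, fell and 1 large subunit paralog, Rpl3l, rose. This is 1.16% of the tested members higher, against 7.59% of all genes, and 2.33% lower, against 4.69% of all genes. The median log2 fold change was -0.18 over the members (-0.14 large, -0.20 small) and 0.03 over all genes. Without control LT-HSC replicate 2, which the members' own levels singled out, it was 0.0039 over the members and 0.06 over all genes.

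Rps27l, at chromosome 9, 66946086 to 66949516 on the plus strand (GRCm38), encodes a close relative of the small subunit protein Rps27 and is a known p53 target. Its level was 36.7, 84.2, 64.2 and 62.1 CPM in LT-HSCs of control mice but 28.4, 19.96 and 27.9 CPM in those of AML1-ETO mice. The groups did not overlap, and the log2 fold change was -1.17 ± 0.31 (SE) with adjusted p = 0.0437. The call was lost without control LT-HSC replicate 2 (-1.01, adjusted p = 0.0777) and without control LT-HSC replicate 4 (-1.17, adjusted p = 0.0780). It held in 7 of 10 other settings of scaling, test, filter and fit. The losses came with no filter beyond 1 count, with a replicate block and with the members' own total as library size.

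Rpl3l, at chromosome 17, 24727820 to 24736143 on the plus strand, encodes a relative of Rpl3 known from heart and skeletal muscle. It had no count in the 4 control LT-HSC libraries and 4.84, 14.1 and 5.75 CPM in those of AML1-ETO mice. Set against a floor of 3 counts over the whole control group, it was at least 169-fold higher, with adjusted p = 0.0183. The level stayed low beside that of Rpl3, since Rpl3l made up 0.255%, 0.932% and 0.365% of the 2 genes' counts in the AML1-ETO LT-HSC libraries. In GMPs it was at 0.535, 0.700, 0.584 and 0.524 CPM in controls and at 2.499, 7.26 and 0 CPM in AML1-ETO mice, without a call (log2 fold change 2.47 ± 1.33, adjusted p = 0.31).

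With 3 AML1-ETO LT-HSC libraries, each was needed: leaving out replicate 1, 2 or 3 of them left 0 members called. The members not called included Rpl17 at 136, 199, 109 and 125 CPM in control and 209, 279 and 193 CPM in AML1-ETO LT-HSCs (log2 fold change 0.78 ± 0.24, adjusted p = 0.073). Once control LT-HSC replicate 2 was left out, Rpl17 rose as well (0.96 ± 0.20, adjusted p = 0.0309). The calls were then 2 higher (Rpl17 and Rpl3l), against 7.7% of all genes, and 1 lower, against 4.29%. With the members' own total as library size they were 1 higher (Rpl3l), against 4.41% of all genes, and 1 lower, against 2.36%. In both settings the member called lower was not Rps27l.

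**Figure D2:**
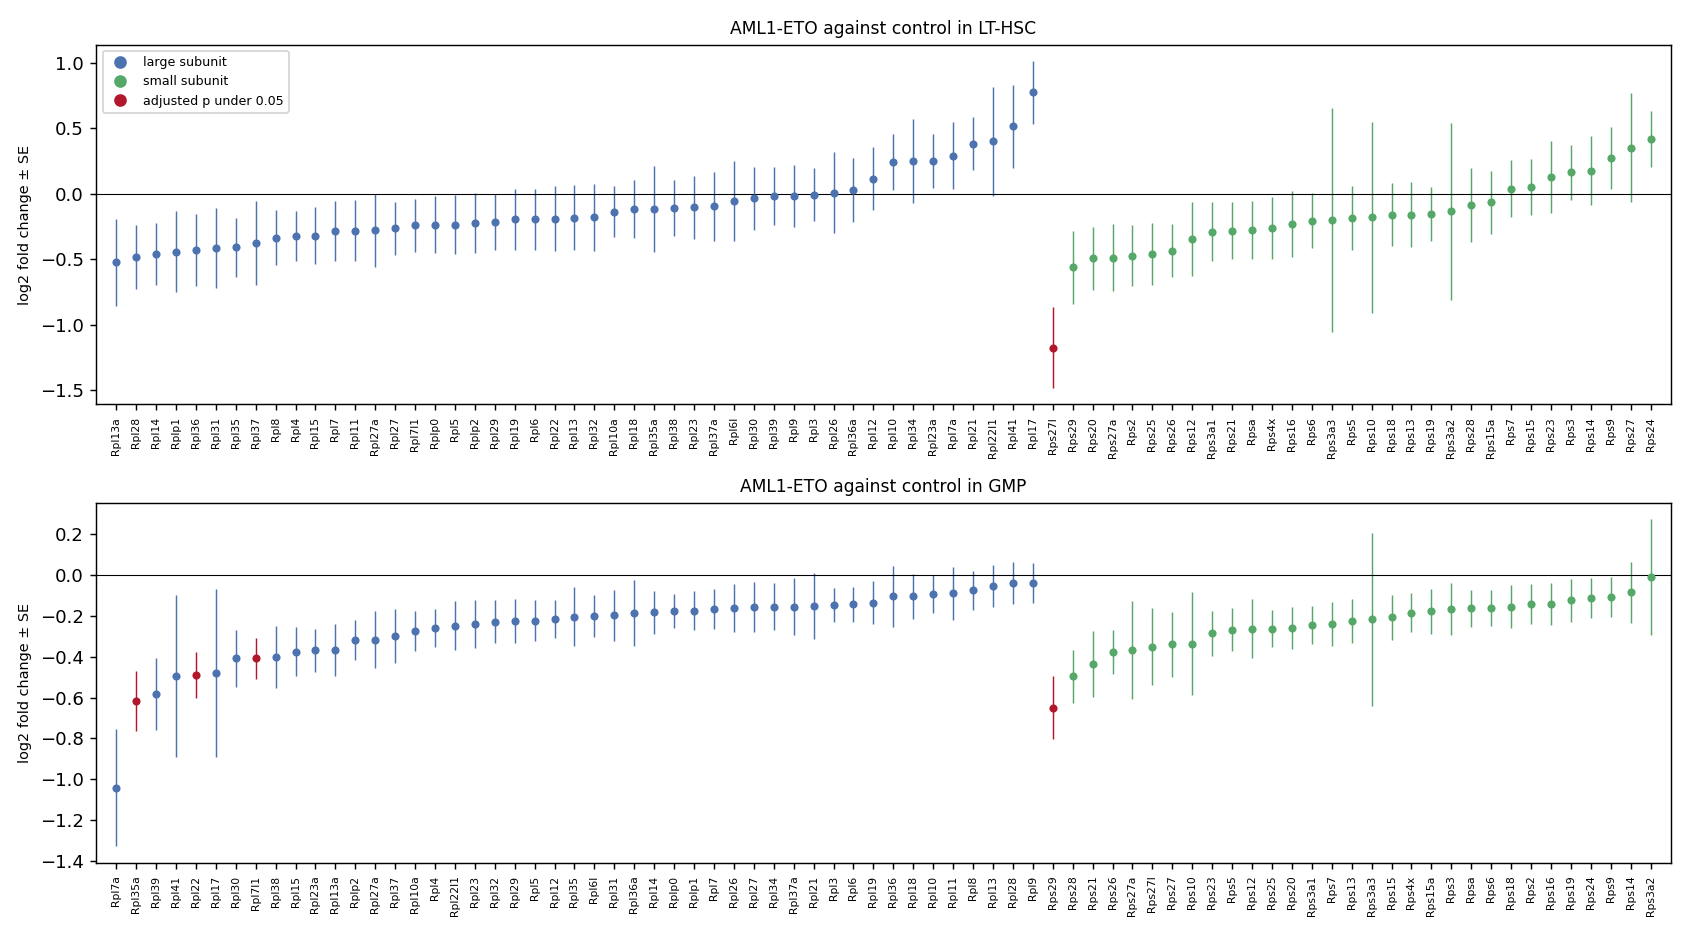
Log2 fold change ± SE (y axis) of AML1-ETO against control libraries for the tested members (x axis), in LT-HSCs (top) and GMPs (bottom), ordered within each subunit; Rpl3l, Rpl32l, Rpl24 and Rps4l, all at low counts, are left out, as are genes not reported here. Rps27l has the lowest value drawn in LT-HSCs, and in GMPs nearly all members lie below 0.

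In GMPs the fold changes were small and nearly all in 1 direction. Of 85 members tested among 13981 genes, 83 had a log2 fold change below 0, with a median of -0.21 (-0.20 large, -0.22 small) against -0.03 over all genes. 5 members fell (among them Rps29, Rpl35a, Rpl22 and Rpl7l1) and 0 rose. That is 5.88% lower, against 3.96% of all genes, and 0% higher, against 5.47% of all genes. Every AML1-ETO library was below every control library in 35 of the 85 members (21 large, 14 small), against 16.1% of all genes. The unadjusted edgeR p was under 0.05 in 24 members, but the share of all genes at that level was not counted.

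Rps29, at chromosome 12, 69157722 to 69159186 on the minus strand, encodes a small subunit protein mutated in some Diamond-Blackfan families. It stood at 281, 218, 321 and 269 CPM in control GMPs and at 144, 184 and 186 CPM in AML1-ETO GMPs, a log2 fold change of -0.65 ± 0.15 (SE) with adjusted p = 0.0367. Rpl35a (chromosome 16, 33056453 to 33060189, plus strand), a large subunit gene of the same disease list, stood at 439, 412, 478 and 366 CPM in controls and 276, 321 and 221 CPM in AML1-ETO GMPs. Its log2 fold change was -0.62 ± 0.15 with adjusted p = 0.0379. In both genes all 3 AML1-ETO GMP libraries lay below the control libraries.

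Rpl22 (chromosome 4, 152325742 to 152334071, plus strand), which encodes a large subunit protein known for its role in lymphocyte development, was at 422, 386, 460 and 355 CPM in control GMPs and 280, 309 and 267 CPM in AML1-ETO GMPs. The log2 fold change was -0.49 ± 0.11 with adjusted p = 0.0342. Rpl7l1 (chromosome 17, 46773907 to 46782672, minus strand), a relative of Rpl7, was at 173, 153, 185 and 172 CPM in control and 124, 136 and 121 CPM in AML1-ETO GMPs, and its log2 fold change was -0.41 ± 0.10 with adjusted p = 0.0418. Both genes, too, did not overlap between the groups.

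The calls in GMPs were close to the threshold. Leaving out any 1 of the 4 control GMP libraries left 0 members called, with Rps29 between -0.74 and -0.56 on the log2 scale and its adjusted p between 0.0572 and 0.122. Leaving out an AML1-ETO GMP library left 2 (replicate 1), 11 (replicate 2) or 3 (replicate 3). Rpl7a had the most negative log2 fold change of the members but was not called (-1.04 ± 0.29, adjusted p = 0.062). It stood at 353, 295, 624 and 316 CPM in control and 145, 198 and 228 CPM in AML1-ETO GMPs.

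**Figure D3:**
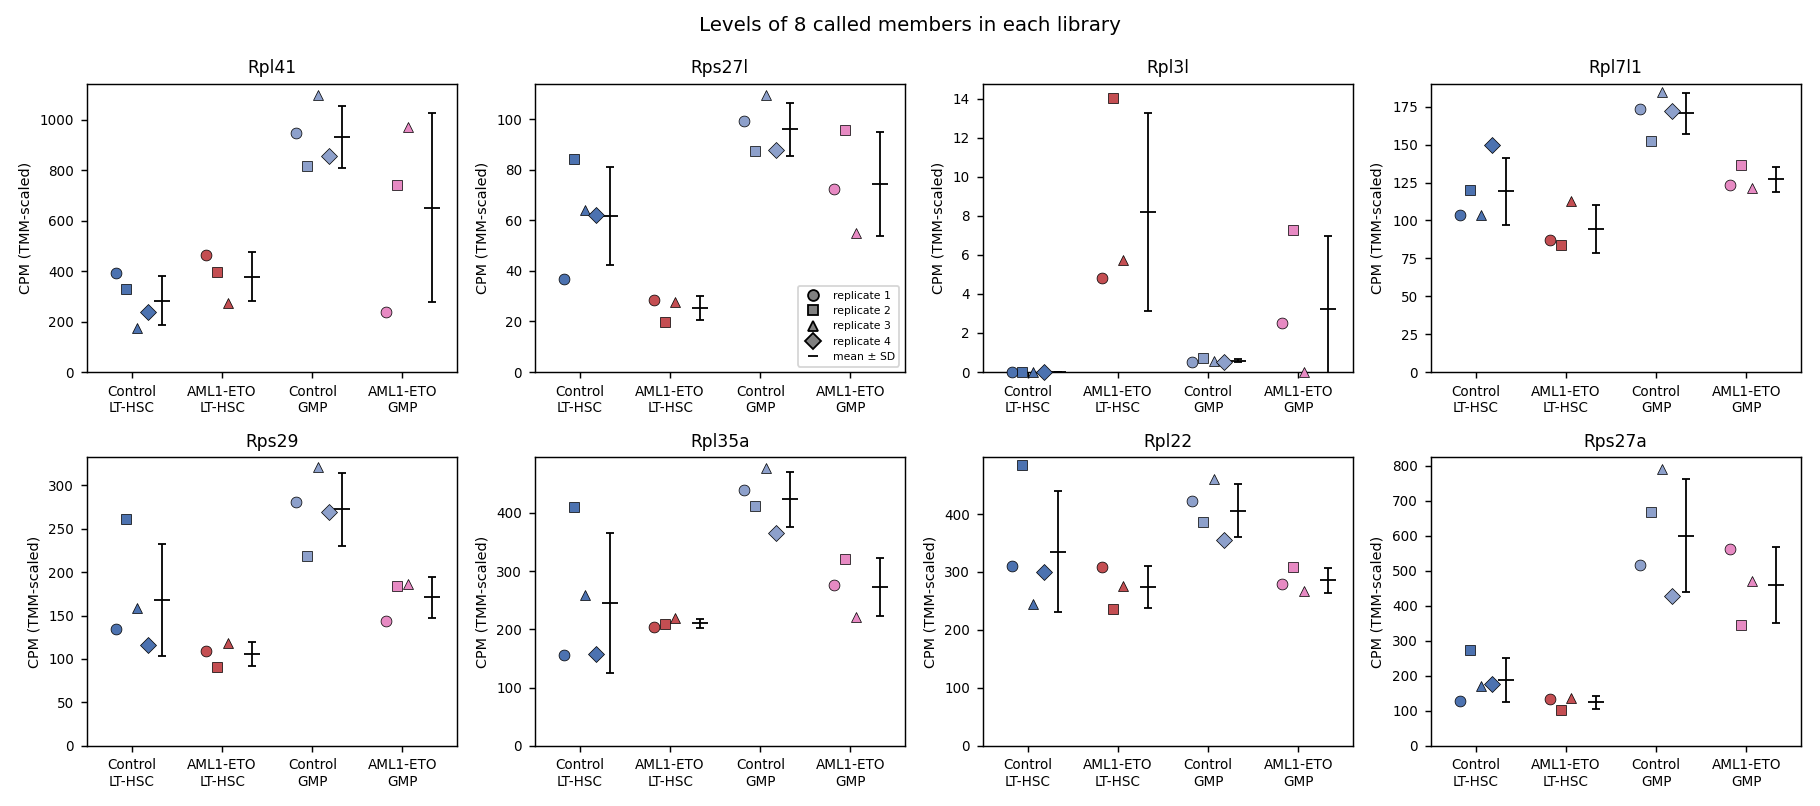
Levels (TMM-scaled CPM, y axis) of 8 members in each of the 14 libraries by group (x axis); symbols are replicates and the bar is mean ± SD. Rps27l is lowest in AML1-ETO LT-HSCs, Rps29, Rpl35a, Rpl22 and Rpl7l1 are lower in AML1-ETO than in control GMPs, Rps27a is higher in both GMP groups than in LT-HSCs, and Rpl41 ranges from 239 to 974 CPM in AML1-ETO GMPs.

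The difference between the AML1-ETO effects in GMPs and LT-HSCs was tested in 1 fit of all 14 libraries and 16116 genes. By edgeR 0 of 86 members were called, against 6.34% of all genes. In 6 members the unadjusted edgeR p was under 0.05, but here too the share of all genes was not counted. The DESeq2 Wald test called 3. Low p values were those of Rpl3l (-7.58 ± 2.24 on the log2 scale, adjusted p = 0.0737) and Rpl7a (-1.25 ± 0.40, adjusted p = 0.0819). Without control LT-HSC replicate 2, the members Rpl23a (-0.71), Rps24 (-0.64) and Rps23 (-0.65) were called, 3 lower against 3.57% of all genes and 0 higher against 3.22%, with adjusted p of 0.0383, 0.0365 and 0.0474. All 3 had a more positive fold change in LT-HSCs than in GMPs.

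In control mice, the ribosomal protein genes that changed were all higher in GMPs than in LT-HSCs. Of 86 members 18 rose (12 large, 6 small) and 0 fell, which is 20.9% higher, against 13.9% of all genes, and 0% lower, against 10.6% of all genes. The median log2 fold change was 0.33 (0.30 large, 0.34 small) against 0.02 over all genes, and 83 members were above 0. The groups did not overlap in 12 members, against 20.8% of all genes. The count turned on control LT-HSC replicate 2. Without it 70 of 86 members rose (42 large, 28 small) and 0 fell, 81.4% against 15.7% of all genes, and the median was 0.53. That library was singled out by these same members' levels, so the larger count follows in part from that choice and is a description. All 18 members called with all libraries were among the 70. Leaving out any other single control library left from 6 to 12 members called.

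Rps27a (chromosome 11, 29545846 to 29548109, minus strand), which encodes ubiquitin fused to a small subunit protein, had one of the largest rises. It stood at 128, 275, 170 and 176 CPM in control LT-HSCs but 515, 668, 789 and 427 CPM in control GMPs, a log2 fold change of 1.68 ± 0.25 (SE) with adjusted p = 0.000312. In AML1-ETO mice it was at 134, 103 and 136 CPM in LT-HSCs and 563, 346 and 469 CPM in GMPs, a log2 fold change of 1.89 ± 0.29 with adjusted p = 0.000411. No LT-HSC library reached the lowest GMP library of either genotype.

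Rpl41 (chromosome 10, 128548114 to 128549305, minus strand), which encodes the smallest ribosomal protein, was at 394, 328, 174 and 237 CPM in control LT-HSCs but 950, 819, 1098 and 859 CPM in control GMPs (1.72 ± 0.36, adjusted p = 0.00318). In AML1-ETO GMPs it ranged from 239 CPM in replicate 1 to 744 and 974 CPM in the other two, beside 464, 397 and 274 CPM in the LT-HSCs, without a call (0.79 ± 0.40, adjusted p = 0.183). Rpl7a (chromosome 2, 26910764 to 26913318, plus strand) rose from 156, 196, 160 and 168 CPM to 353, 295, 624 and 316 CPM in control GMPs (1.23 ± 0.26, adjusted p = 0.0041). In AML1-ETO mice its log2 fold change was -0.02 ± 0.30 (adjusted p = 0.983).

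Among the other members called in control mice with at least 20 counts, Rpl17 (1.09, adjusted p = 0.0279), Rpl35a (0.79, adjusted p = 0.0385), Rpl23a (0.78, adjusted p = 0.00251), Rps29 (0.70, adjusted p = 0.0344), Rps23 (0.67, adjusted p = 0.0289), Rpl6l (0.63, adjusted p = 0.041), Rpl10 (0.60, adjusted p = 0.0122) and Rps25 (0.59, adjusted p = 0.0212) had the next largest log2 fold changes. With the counts of pseudogene rows added to their parent genes, the log2 value of Rpl17 dropped to 0.0018 (adjusted p = 1), so its reads, and its values in LT-HSCs above, are uncertain. Rpl6l is annotated as a processed pseudogene whose transcript is 98.7% identical to Rpl6, so its reads are uncertain. Rpl3l, at 0 counts in control LT-HSCs, was at least 12.1-fold higher in control GMPs against the floor of 3 counts over the group, with adjusted p = 0.0232. The remaining calls, with log2 fold changes from 0.45 to 0.55, were Rpl4, Rpl7l1, Rpl8, Rpl29, Rps2 and Rps26. Over 10 other settings of scaling, test, filter and fit, Rps2 was called in 0, Rpl6l in 1, and Rpl8 and Rpl29 in 2 each. Rps29 was called in 4, Rpl7l1 in 5, Rpl4, Rpl17, Rpl35a, Rps23 and Rps25 in 6 each, and Rps26 in 7. Rpl10 and Rpl23a were called in 9 each, and Rps27a, Rpl41 and Rpl7a in all 10. Rpl3l was called in 8 of the 9 settings that gave it a value.

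In AML1-ETO mice, 16 members (6 large, 10 small) rose from LT-HSCs to GMPs and 0 fell, 18.6% against 12.6% of all genes higher and 0% against 9.15% lower. The median was 0.36 (0.33 large, 0.46 small) and 0.00 over all genes. The groups did not overlap upward in 50 members (29 large, 21 small), against 21.1% of all genes, and downward in 3, against 20.7%. Without control LT-HSC replicate 2, which shares the estimate of spread, 31 members rose (36.0%, against 13.8% of all genes) at a median of 0.34. That library is not itself in this comparison and was singled out by these members' levels, so the larger count is a description. Leaving out AML1-ETO LT-HSC replicate 2 left 6 calls and replicate 3 left 9, and leaving out AML1-ETO GMP replicate 2 or 3 left 9 or 10. Of the 18 members called in control mice and the 16 called in AML1-ETO mice 6 were shared (33.3% and 37.5%), namely Rpl4, Rpl8, Rps2, Rps25, Rps26 and Rps27a.

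Rps27l, called lower in AML1-ETO LT-HSCs, had the next largest rise after Rps27a. Rps27l rose from 28.4, 19.96 and 27.9 CPM to 72.5, 95.7 and 54.95 CPM (1.55 ± 0.28, adjusted p = 0.00142). In control mice it was not called (0.64 ± 0.24, adjusted p = 0.0664), but without control LT-HSC replicate 2 it was (0.82 ± 0.24, adjusted p = 0.0242). Rps2 (0.89, adjusted p = 0.00438), Rps25 (0.87, adjusted p = 0.00595), Rpl28 (0.85, adjusted p = 0.0106), Rpl8 (0.82, adjusted p = 0.00406), Rps12 (0.80, adjusted p = 0.0384), Rps26 (0.69, adjusted p = 0.0115), Rpl35 (0.66, adjusted p = 0.0383) and Rps20 (0.62, adjusted p = 0.0445) followed. Rpl14, Rpl4, Rpsa and Rplp0 were also called, with log2 fold changes from 0.51 to 0.60. Over 10 other settings, Rpsa was called in 1, Rpl14, Rpl35 and Rps20 in 3 each, Rplp0 in 4 and Rps12 in 5. Rpl4 was called in 8 and Rps26 in 9, while Rps27a, Rps27l, Rps2, Rps25, Rpl28 and Rpl8 were called in all 10.

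Relative to one another, the members of AML1-ETO mice did not all shift alike. With the members' own total as library size, 8 rose from LT-HSCs to GMPs (among them Rps27a, Rps27l, Rps2, Rps25, Rpl28 and Rpl8), against 6.16% of all genes, and 4 fell, against 12.4%. This scaling set the median of all genes at -0.37, and that of the members at -0.03. Those that fell were Rpl21 (-0.74 ± 0.18, adjusted p = 0.0101), Rps24 (-0.68 ± 0.12, adjusted p = 0.00176), Rps9 (-0.56 ± 0.13, adjusted p = 0.00763) and Rps14 (-0.52 ± 0.14, adjusted p = 0.0215). Rps24, a small subunit gene with several splice forms, held 1256, 1011 and 1123 CPM in these LT-HSCs and 867.6, 942 and 950 CPM in AML1-ETO GMPs, without overlap. In control mice it stood at 752, 1235, 840 and 803 CPM in LT-HSCs and 1025, 962, 1131 and 913 CPM in GMPs. In control mice the same scaling called 4 members higher (Rps27a, Rpl41, Rpl7a and Rpl3l), 4.65% against 6.21% of all genes, and 0 lower, against 14.9%.

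**Figure D4:**
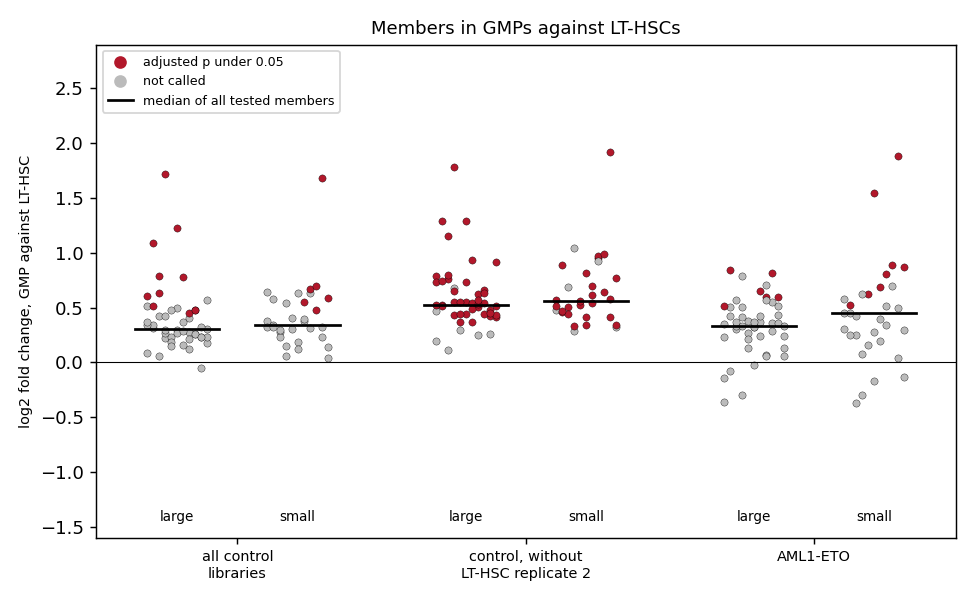
Log2 fold change of GMPs against LT-HSCs (y axis) for each tested member by subunit, in control mice with all libraries, in control mice without LT-HSC replicate 2, and in AML1-ETO mice; red points have an adjusted p under 0.05, the line is the median, and Rpl3l, Rpl32l, Rpl24, Rps4l and genes not reported here are drawn in no column. Members called in control mice number 18 with all libraries and 70 without that one, which the members' own levels singled out.

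Gene copies are set apart here because paralogs can take each other's place in a ribosome. Rps27 and Rps27l are shown by their coding sequences, since the share of the copy in the pair's counts differed most, in percentage points, among the pairs compared. The 2 coding sequences (GENCODE M21, GRCm38, each 252 bases without the stop codon) differ at 60 bases, printed in capitals, and are 76.2% identical, with no identical stretch over 11 bases in the best local alignment of the transcripts.
Rps27: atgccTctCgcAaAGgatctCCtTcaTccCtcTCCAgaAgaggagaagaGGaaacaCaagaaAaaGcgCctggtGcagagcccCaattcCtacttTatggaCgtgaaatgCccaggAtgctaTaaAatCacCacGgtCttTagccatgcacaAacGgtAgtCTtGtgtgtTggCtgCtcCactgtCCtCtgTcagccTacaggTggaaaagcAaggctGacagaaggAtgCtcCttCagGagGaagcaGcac
Rps27l: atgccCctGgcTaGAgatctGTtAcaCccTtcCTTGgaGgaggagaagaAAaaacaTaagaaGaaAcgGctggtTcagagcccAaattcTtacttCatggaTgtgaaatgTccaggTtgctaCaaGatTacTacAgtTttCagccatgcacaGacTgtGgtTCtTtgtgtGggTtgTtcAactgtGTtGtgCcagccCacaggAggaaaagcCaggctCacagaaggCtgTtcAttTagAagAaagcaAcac

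Rps27l made up 19.5%, 20.8%, 44.4% and 29.7% of the pair's counts in control LT-HSCs and 9.42%, 10.7% and 13.2% in AML1-ETO LT-HSCs. In GMPs it made up 33.5%, 30.6%, 31.1% and 32.3% in controls and 28.6%, 43.4% and 23.8% in AML1-ETO mice. The AML1-ETO LT-HSC libraries were thus below all 11 others. Rps27 itself was at 152, 320, 80.4 and 147 CPM in control and 273, 166 and 183 CPM in AML1-ETO LT-HSCs, with overlap and no call (0.35 ± 0.42, adjusted p = 0.697).

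Rpl22l1, the paralog of Rpl22, made up 18.7%, 20.7%, 10.5% and 17.3% of its pair in control LT-HSCs and 24.5%, 27.4% and 21.9% in AML1-ETO LT-HSCs. In GMPs the shares were 17.5%, 18.8%, 17.2% and 17.4% against 21.8%, 19.2% and 19.97%. In both cell types each AML1-ETO library was above each control library, but Rpl22l1 itself passed the test in neither (0.40 ± 0.42, adjusted p = 0.648 in LT-HSCs and -0.25 ± 0.12, adjusted p = 0.263 in GMPs). Rpl7l1 held 10.5% ± 2.7 (SD, n = 4) and 10.4% ± 1.4 (SD, n = 3) of its pair in control and AML1-ETO LT-HSCs, and 12.1% ± 0.71 (SD, n = 4) and 10.4% ± 0.36 (SD, n = 3) in GMPs.

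Other copies were rare. Rpl10l, a testis paralog of Rpl10, had no count, and Rpl39l, also known from testis, had 5 counts in 1 control GMP library. Rps4l, annotated as a transcribed processed pseudogene, made up 3.48% of its pair with Rps4x in AML1-ETO GMP replicate 1 (44.8 CPM) and at most 0.581% in any other library. Rpl32l, a processed pseudogene 96.0% identical to Rpl32, held 3.29, 6.30 and 8.32 CPM in LT-HSCs of AML1-ETO mice and 0.117, 0.0682, 1.97 and 0 CPM in controls, without a call (3.56 ± 1.70, adjusted p = 0.238). Reads of Rpl6l, Rpl32l, Rps3a2 and Rps3a3, at 96.0% to 99.5% identity with a member, could belong to the parent gene.

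**Figure D5:**
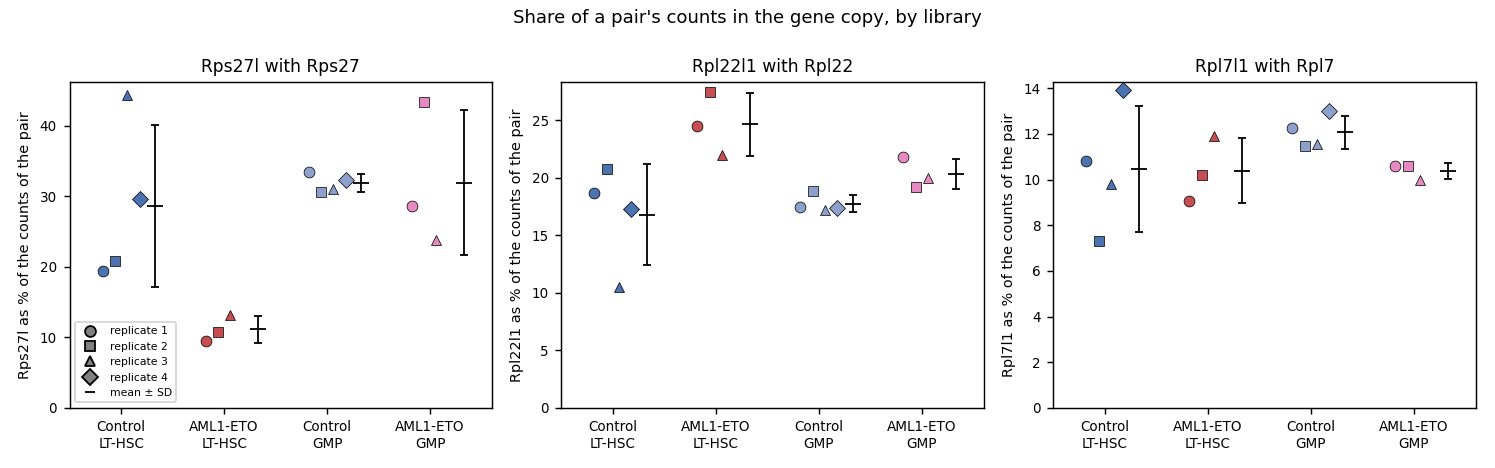
Share of a pair's counts in the gene copy (percent, y axis) in each library by group (x axis) for Rps27l, Rpl22l1 and Rpl7l1; symbols are replicates and the bar is mean ± SD. Rps27l took 9.42% to 13.2% in AML1-ETO LT-HSCs, below every other library.

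The proteins of the stalk and of the 5S ribonucleoprotein (Rplp0, Rplp1, Rplp2, Rpl12, Rpl5 and Rpl11) have roles beyond structure: the first 4 form the stalk with its base, and Rpl5 and Rpl11 with 5S rRNA bind Mdm2 and so link ribosome assembly to p53. None of the 6 was called between genotypes, with medians of -0.24 in LT-HSCs (-0.07 without control LT-HSC replicate 2) and -0.20 in GMPs. Rplp0 alone was called between cell types, in AML1-ETO mice (0.51 ± 0.17, adjusted p = 0.0403), from 2273, 1896 and 1999 CPM to 2928, 2879 and 3003 CPM. That call held in 4 of 10 other settings and was lost on leaving out any single AML1-ETO library (edgeR adjusted p from 0.0508 to 0.144). With control LT-HSC replicate 2 left out, 6 of 6 rose in control mice, as did 70 of all 86 members and 15.7% of all genes, and 4 of 6 in AML1-ETO mice, as did 31 of the 86 members and 13.8% of all genes. Rpl5 stood at 959, 1483, 933 and 892 CPM in control LT-HSCs, 916, 746 and 873 in AML1-ETO LT-HSCs, 1311, 1232, 1367 and 1111 in control GMPs and 987, 1067 and 1131 in AML1-ETO GMPs.

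Of the 19 members on the Diamond-Blackfan list, 1 fell in AML1-ETO LT-HSCs and 3 fell in AML1-ETO GMPs (Rps29 and Rpl35a among them), with medians of -0.18 and -0.22. Over all genes 4.69% and 3.96% fell. Between cell types 3 rose in control mice (Rpl35a, Rps29 and Rps26) and 3 in AML1-ETO mice (Rps26 and Rpl35 among them), with medians of 0.34 and 0.37, against 13.9% and 12.6% of all genes. These counts were 17 and 8 without control LT-HSC replicate 2, against 15.7% and 13.8% of all genes. Of all 86 members 70 and 31 were then called, and the members' own levels singled that library out, so these are descriptions. Fau, which encodes a ribosomal protein fused to a ubiquitin-like one, and the small subunit scaffold Rack1 were called in no comparison with all libraries. Fau stood at 435, 829, 553 and 402 CPM in control LT-HSCs, again highest in replicate 2, and at 558, 448 and 482 CPM in LT-HSCs with the fusion.

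Genes that build ribosomes include the factors that process rRNA and assemble the subunits. Of 76 tested ribosome biogenesis genes, 15 fell and 0 rose in AML1-ETO LT-HSCs (median -0.60), and 15 fell and 0 rose in AML1-ETO GMPs (median -0.34). In LT-HSCs these included Nhp2 (-1.54 ± 0.27, adjusted p = 0.0105), a protein of H/ACA particles that guide pseudouridylation, Nolc1 (-1.40, adjusted p = 0.025), Rrp12 (-1.39, adjusted p = 0.0473) and Utp20 (-1.26, adjusted p = 0.0216). In GMPs they included the large subunit assembly factor Rpf2 (-0.85, adjusted p = 0.0186), Grwd1 (-0.81, adjusted p = 0.022), Heatr1 (-0.68, adjusted p = 0.045) and Mdn1 (-0.66, adjusted p = 0.0314). After removal of control LT-HSC replicate 2, 13 fell in LT-HSCs at a median of -0.56. From LT-HSCs to GMPs, 20 rose in control mice and 40 in AML1-ETO mice, with 0 falling in either. For this list and those that follow, the shares of all genes that rose and fell are those given above for each comparison. The list was not tested against the members.

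Translation factors and other TOP mRNAs work with, or are controlled like, the ribosomal proteins. Of 45 translation factors, 1 rose and 2 fell in AML1-ETO LT-HSCs (median -0.29) and 0 rose and 2 fell in AML1-ETO GMPs (median -0.23). Eef2k, the kinase that inhibits elongation factor 2, rose in LT-HSCs (1.09, adjusted p = 0.00717). Gspt1, the release factor eRF3a, fell in both (-0.88, adjusted p = 0.0438, and -0.43, adjusted p = 0.0274). Of 20 other TOP mRNA genes, Vim rose (2.07, adjusted p = 0.00144) and Nap1l1 fell (-1.20, adjusted p = 0.00626) in LT-HSCs, and in GMPs Vim rose (0.44, adjusted p = 0.0384) and Nap1l1 (-0.59, adjusted p = 0.0129) and Npm1 (-0.47, adjusted p = 0.0307) fell. From LT-HSCs to GMPs, 8 of these 20 rose in each genotype and 0 fell. Translation factors rose in 16 of 45 in control mice, with 0 falling, and in 24 of 45 in AML1-ETO mice, with 1 falling. The lists share genes, such as Pabpc1 and Eef1d, which rose in both genotypes and are counted in both lists.

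Mitochondrial ribosomal proteins, which build a separate ribosome, were compared for scale. Of 77 tested, 0 rose and 2 fell in AML1-ETO LT-HSCs (Mrpl20, -1.58, adjusted p = 0.0226, and Mrpl12, -1.39, adjusted p = 0.0295), and 0 rose and 3 fell in AML1-ETO GMPs, led by Mrps35 (-1.01, adjusted p = 0.0258). Their median was -0.50 in LT-HSCs (-0.29 without control LT-HSC replicate 2) and -0.25 in GMPs. Between cell types 18 rose and 1 fell in control mice and 31 rose and 0 fell in AML1-ETO mice, with medians of 0.65 and 0.88. The count was 38 in each genotype without control LT-HSC replicate 2.

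Of 18 genes of mTOR signalling, TOP mRNA control and the Myc network, Myc, a transcription factor that activates ribosome genes, fell in AML1-ETO GMPs (-1.11 ± 0.19, adjusted p = 0.0179). It stood at 404, 434, 462 and 492 CPM in control GMPs and at 148, 266 and 203 CPM in AML1-ETO GMPs. The LT-HSC value for Myc was 0.0072 ± 0.19 (adjusted p = 0.992), and the difference between the cell types was called (-1.04 ± 0.27, adjusted p = 0.0373). Mycn fell in LT-HSCs (adjusted p = 0.00694), from 87.4, 86.8, 81.2 and 102 CPM to 0, 0 and 1.65 CPM. Rptor (1.47, adjusted p = 0.00452) and Rps6ka1 (0.86, adjusted p = 0.0437) rose in AML1-ETO LT-HSCs. Larp1 rose from LT-HSCs to GMPs in AML1-ETO mice (1.01, adjusted p = 0.00795).

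Of 20 p53 target genes, 3 rose (Fas, Polk and Sesn1) and 1 fell (Gtse1) in AML1-ETO LT-HSCs, with a median of -0.15. In AML1-ETO GMPs 5 of 19 tested rose and 0 fell, with a median of 0.66, among them Fas (3.19, adjusted p = 0.0348), Plk2 (2.84, adjusted p = 0.0113), Trp53inp1 (1.86, adjusted p = 0.0351) and Bbc3 (1.85, adjusted p = 0.0321). Cdkn1a, a defining p53 target, was called in neither (-0.09, adjusted p = 0.946 in LT-HSCs and 0.74, adjusted p = 0.0728 in GMPs).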

How the data were processed

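Values are raw read counts per gene, deposited by the authors in 1 table with 14 columns; HISAT2 2.0.5, featureCounts 1.5.0-p3 and mm10 are named in the submitters' processing notes. Neither the annotation release nor the strand setting is given in the sources used here. Per the labels' protocols, a SMART-Seq v4 kit and a stranded kit were used. Members and lists were chosen with earlier results of these data known. From the counts, edgeR 4.0.16 (R 4.3.3; filterByExpr, TMM, glmQLFit, glmQLFTest, Benjamini-Hochberg over all genes) gave the tests: 7 libraries for each genotype comparison and all 14 for the others. SE is the log2 fold change divided by the square root of F. CPM use 1 TMM scaling over 14 libraries. Depth was 13210952 to 19403864 counts. Alternatives were DESeq2 1.42.0, other scalings, filters, left-out libraries, a replicate block, added pseudogene rows and removed immunoglobulin genes; the members' own total as library size was chosen after seeing the data. Replicates of a group differed by more than sampling noise. Positions and lengths came from GENCODE M21 (GRCm38), starts from RefSeq (GRCm38.p6). Named were members called (at most 12 a direction, the largest with a mean of at least 20 counts), the 3 lowest p values where none was called, paralog pairs, stalk and 5S genes, the 3 highest and lowest levels per length, and up to 4 called genes of each other list; Rps24, Rpl17, Rpl7a, Rpl5 and Cdkn1a values were chosen after being seen. Some genes are not reported here by name and are in the counts only. Scripts were tested on simulated data.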

Additional observations from a re-analysis of the deposited data

Results flagged for a closer look

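A library was marked where its gap to the nearest library of its group exceeded Dixon's 95% critical value for 4 samples, as a share of the group's range. Over the groups of 4 libraries, 24 of 168 values were marked. Members vary together and a single high library marks many of them at once, so this count was not compared with chance. Control LT-HSC replicate 2 was the highest of its group in 22 of them. The share of counts in small subunit members had a gap of 0.834 of the range. Among large subunit members the gap was 0.862 for Rpl11, 0.936 for Rpl23, 0.843 for Rpl31, 0.893 for Rpl32, 0.892 for Rpl36, 0.92 for Rpl37, 0.886 for Rpl5, 0.853 for Rpl7, 0.902 for Rpl9 and 0.877 for Rplp1. Among small subunit members it was 0.847 for Rps14, 0.88 for Rps15a, 0.893 for Rps16, 0.917 for Rps18, 0.869 for Rps20, 0.861 for Rps21, 0.913 for Rps23, 0.891 for Rps3, 0.957 for Rps3a1, 0.954 for Rps3a2 and 0.909 for Rps6. The other two marked values were the high Rpl32l level of control LT-HSC replicate 3 (0.941), at 1.97 CPM, and the Rpl6 level of control GMP replicate 3 (0.964).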

How the results depend on the processing

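Counts of members called moved with the settings. A change of setting can also move the number of all genes called, and that share is given only where stated above. The counts here, and those above with 1 library left out, therefore describe the calls and do not set the members against other genes. In LT-HSCs the 3 calls became 5 with DESeq2, 9 in a fit of all 14 libraries, 0 with a replicate block and 0 to 4 with 1 library left out. In GMPs the 5 calls became 8 with upper-quartile factors, 14 with DESeq2, 3 without a filter beyond 1 count, 0 with a replicate block, 0 in a fit of all 14 libraries, 0 with the members' own total as library size and 0 to 11 with 1 library left out. For the difference between cell types, 0 calls became 3 with DESeq2, 1 with the own total and 0 to 3 with 1 library left out. From LT-HSCs to GMPs in control mice, 18 calls became 6 with DESeq2's size factors, 8 with upper-quartile factors, 7 in a fit of the control libraries alone, 4 with the own total and 6 to 70 with 1 library left out. In AML1-ETO mice, 16 calls became 10 with DESeq2's size factors, with upper-quartile factors, with scaling from genes other than the members, with a replicate block or with immunoglobulin genes removed, 6 to 13 with 1 AML1-ETO library left out and 31 without control LT-HSC replicate 2. Adding pseudogene rows moved the AML1-ETO GMP shares to 3.469% (large) and 2.706% (small). Unless the setting itself has fewer libraries, the cause was not tested. No member named for its call changed direction under these settings, but medians over the members did. Without control LT-HSC replicate 2 the median in LT-HSCs went from -0.18 to 0.0039 and that of the difference between cell types from 0.03 to -0.20. With the own total, which sets the members' median near 0 by construction, the medians from LT-HSCs to GMPs went from 0.33 to -0.03 in control and from 0.36 to -0.03 in AML1-ETO mice. Whether replicate numbers pair the libraries cannot be told from these data, since low correlations do not exclude pairing. Same-numbered libraries correlated, in deviations from their group means, at -0.077 to 0.036, except for AML1-ETO LT-HSCs and GMPs. There the values were 0.091, 0.161 and 0.109, and each LT-HSC library correlated best with the GMP library of its own number. Only the replicate block uses these numbers, and the main tests do not. In the genotype comparisons the block leaves much less information on the spread between libraries. Control libraries numbered 4 also have no AML1-ETO match there. Calls lost with the block in these comparisons therefore say little. Genes with few counts, such as Rpl3l and Rpl32l, are limited by depth.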
